A study of Mus musculus with 9 samples.

Results

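The genes described here make or control mineral in bone and calcifying cartilage: Spp1 (osteopontin), Bglap (osteocalcin), Ibsp (bone sialoprotein), Dmp1, Mgp (matrix Gla protein), Alpl (tissue-nonspecific alkaline phosphatase), Enpp1, Ank, Phex and Sp7 (osterix). They are 10 of the 55450 genes listed for each library and were chosen by name, with 1 row for each symbol. The choice was made with earlier results of these data known. RNA was measured by sequencing in primary articular chondrocytes, the cells that make joint cartilage, taken from mice and grown at 3% oxygen with 10% serum. The libraries fall into 3 groups of 3. In the first, cells received 50 µg/mL of the DNA-breaking glycopeptide bleomycin for 24 h, and then 5 days of ST045849, an inhibitor of the O-GlcNAc transferase encoded by Ogt, at 20 µM. In the second, the same bleomycin treatment was followed by 5 days in the solvent DMSO. In the third, the vehicle group, PBS took the place of bleomycin and DMSO followed. Hyaluronidase at 4 U/mL for 4 h preceded treatment in all 3 groups, and medium was renewed every 48 h. The series addresses how blocking O-GlcNAc addition bears on bleomycin-induced senescence. The sources used here give neither the genotype and age of the mice nor whether libraries of a group came from separate animals or cultures. P-values therefore measure the spread between these libraries, which may be technical.

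Mineral forms when phosphate meets calcium on a collagen matrix, and cells set the pace by making or destroying pyrophosphate, a small molecule that blocks crystal growth. Enpp1 makes pyrophosphate from ATP outside the cell, Ank passes ATP and pyrophosphate out of the cell, and Alpl breaks pyrophosphate down to phosphate. Secreted proteins act on the crystal itself: osteopontin and matrix Gla protein restrain it, bone sialoprotein can seed it, and osteocalcin binds it. Healthy articular cartilage stays free of mineral, while the deep calcified layer and osteoarthritic cartilage do not.

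The deposited unit is FPKM, fragments per unit of exon length and of sequencing depth, so levels can be set side by side between genes. Differences are log2 changes of FPKM + 1, fitted in limma over all 9 libraries, with their standard errors. P-values were adjusted by Benjamini-Hochberg over the 12441 genes that reached 1 FPKM in at least 3 libraries, and called genes are those with an adjusted p under 0.05. Such a change understates that of a low gene. Of the 10 genes, 9 passed this filter and Phex did not. Bglap and Dmp1 passed it through the groups in which they were high, while the other 7 reached 1 FPKM in every library. Relative depth, read from the steps between low values, ran from 0.875 to 1.00 of that of vehicle library 1.

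The libraries carried the marks of chondrocytes. Col2a1, the collagen of cartilage, lay between 9477 and 24073 FPKM over the 9 libraries. The summed FPKM of 10 chondrocyte markers was 14619 to 21204 with bleomycin plus ST045849, 17658 to 25926 with bleomycin and 23168 to 33355 with vehicle, most of it Col2a1. Of the 10, 3 were called lower with bleomycin plus ST045849 against vehicle, where 9.85% of all tested genes were called (8.11% higher). Acan (aggrecan) fell by 1.66 ± 0.28 on the log2 scale (adjusted p = 0.00657), Matn3 fell by 1.80 ± 0.33 (adjusted p = 0.0097, lost without vehicle library 2) and Col11a2 fell by 1.02 ± 0.28 (adjusted p = 0.0416, lost in 7 of the 9 fits with a library left out). Of the osteoblast and osteocyte markers, Sost (at most 0.0407 FPKM), Fgf23 (at most 0.116) and Mepe (at most 0.0812) were at or near 0. Others of these markers were not, such as Pdpn (33.1 to 106 FPKM over the 9 libraries) and Omd (6.87 to 59.3 FPKM). Ogt, the target of ST045849, averaged 18.7 ± 7.28 FPKM with bleomycin plus ST045849, 36.9 ± 6.86 with bleomycin and 41.9 ± 11.9 with vehicle (SD, n = 3 each), and its RNA fell by 1.16 ± 0.33 on the log2 scale with bleomycin plus ST045849 against vehicle (adjusted p = 0.047). That call was lost without ST045849 library 2 or 3, any bleomycin library, or vehicle library 2 or 3 (adjusted p up to 0.178), and held in 4 of 11 alternative fits.

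The 10 levels spanned several orders of magnitude. In bleomycin libraries Spp1 (1867 ± 342 FPKM) and Mgp (1837 ± 454) stood far above the rest. Ibsp (44.1 ± 34.0), Ank (19.0 ± 0.0775), Enpp1 (14.3 ± 1.39) and Alpl (9.10 ± 2.78) followed, then Bglap (2.68 ± 0.648), Sp7 (2.50 ± 0.573), Dmp1 (1.35 ± 0.459) and Phex (0.0793 ± 0.0408, SD, n = 3 each). The ranges of Spp1 and Mgp overlapped in both bleomycin groups. In vehicle libraries they did not, and Mgp (891 ± 132 FPKM) lay above Spp1 (353 ± 166).

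**Figure D1:**
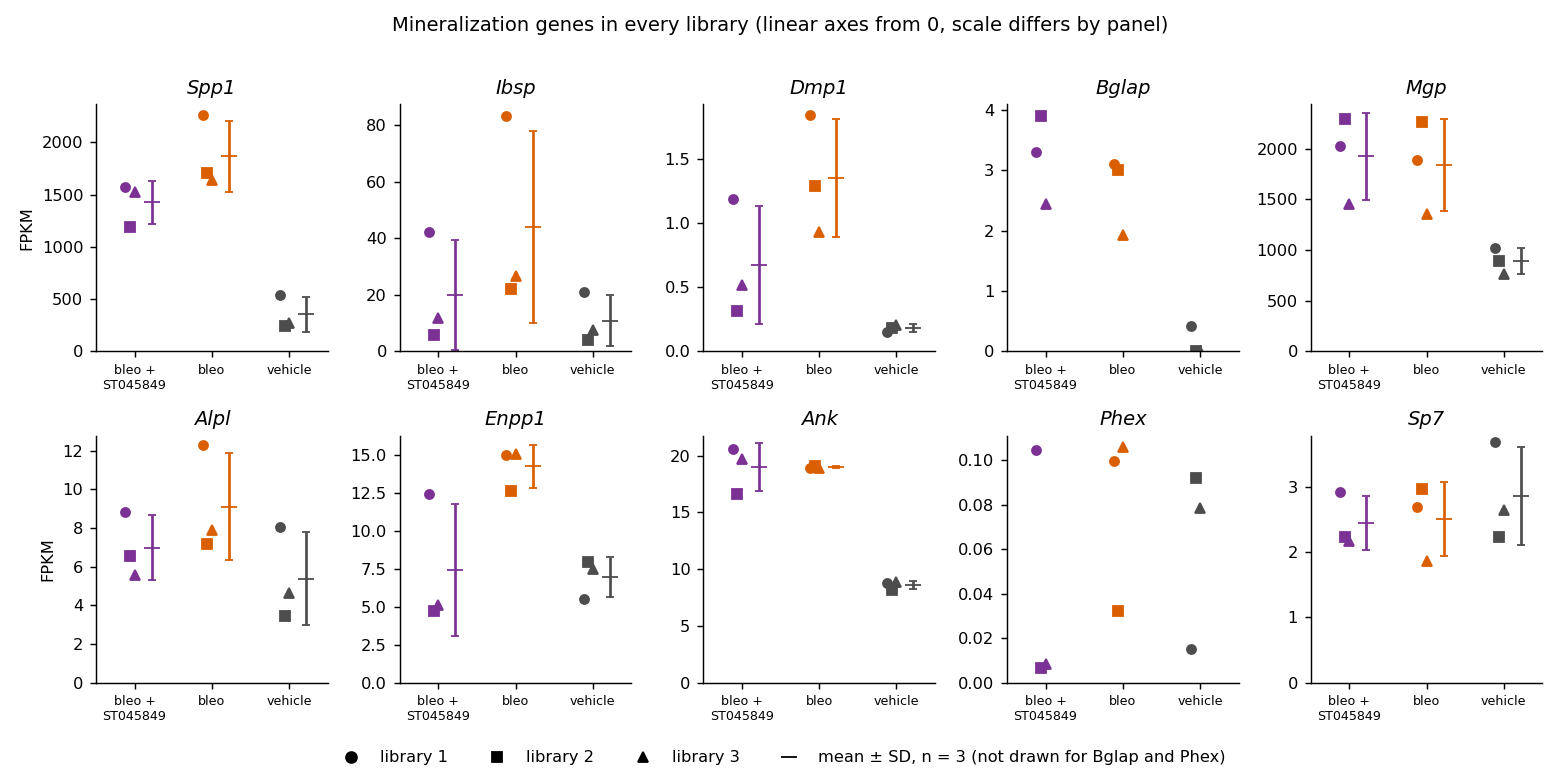
FPKM of the 10 mineralization genes in each of the 9 libraries, on linear axes that start at 0 and differ by panel. Points are libraries, with the symbol giving the library number, and bars, not drawn for Bglap and Phex, are mean ± SD of 3 libraries. Spp1, Dmp1, Bglap, Mgp and Ank lie higher in all 6 bleomycin-treated libraries than in any vehicle library, while Sp7 and Phex overlap in every pair of groups.

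Bleomycin against vehicle addresses how these genes stood 5 days after DNA was broken. Spp1 rose 5.30-fold by the ratio of mean FPKM, Ank rose 2.21-fold, and Bglap and Dmp1, at most 0.412 and 0.208 FPKM in vehicle libraries, rose as well. These were the 4 of 9 tested genes that were called, all of them higher, against 4.88% of all 12441 tested genes called (4.2% higher, 523 genes, with 84 lower). Bglap and Dmp1 passed the filter on low values only through bleomycin-treated libraries. Of the 7 that reached 1 FPKM in every library, 2 were called. Since the genes were chosen with earlier results known, their shares beside those of all genes describe and do not test. The median log2 change of the 9 was 1.02, against 0.10 over all tested genes. In 7 of the 10 genes the bleomycin libraries all lay above the vehicle libraries, which held for 21.4% of tested genes. After median-of-ratios scaling the median over all tested genes moved to -0.05 and the called genes split into 320 higher and 151 lower, and the same 4 of the 10 stayed called.

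Bleomycin plus ST045849 against vehicle gave 4 called genes of 9 as well, all higher: Spp1, Bglap, Ank and Mgp. Of the 7 at 1 FPKM in every library, 3 were called. Over all tested genes 9.85% were called and 8.11% were called higher (1009 higher and 216 lower; 486 and 403 after median-of-ratios scaling, under which Mgp was not called). The median log2 change of the 9 was 0.67, against 0.19 over all tested genes. In 5 of the 10 genes the ST045849 libraries all lay above the vehicle libraries, which held for 21% of tested genes. Bglap and Dmp1 are among the 5. This comparison and the last share their vehicle libraries. Bleomycin plus ST045849 against bleomycin, the comparison of the inhibitor itself, called 0 of the 9 and 0 of all tested genes with limma (0% called). The smallest adjusted p of any gene was 0.0505, and 2804 genes had an unadjusted p under 0.05. Libraries with ST045849 all lay below the bleomycin ones for Spp1 and Enpp1, 2 of the 10 genes, which held for 8.67% of tested genes. The bleomycin libraries are the reference here and the tested group in bleomycin against vehicle, so a rise there and a fall here are not independent.

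**Figure D2:**
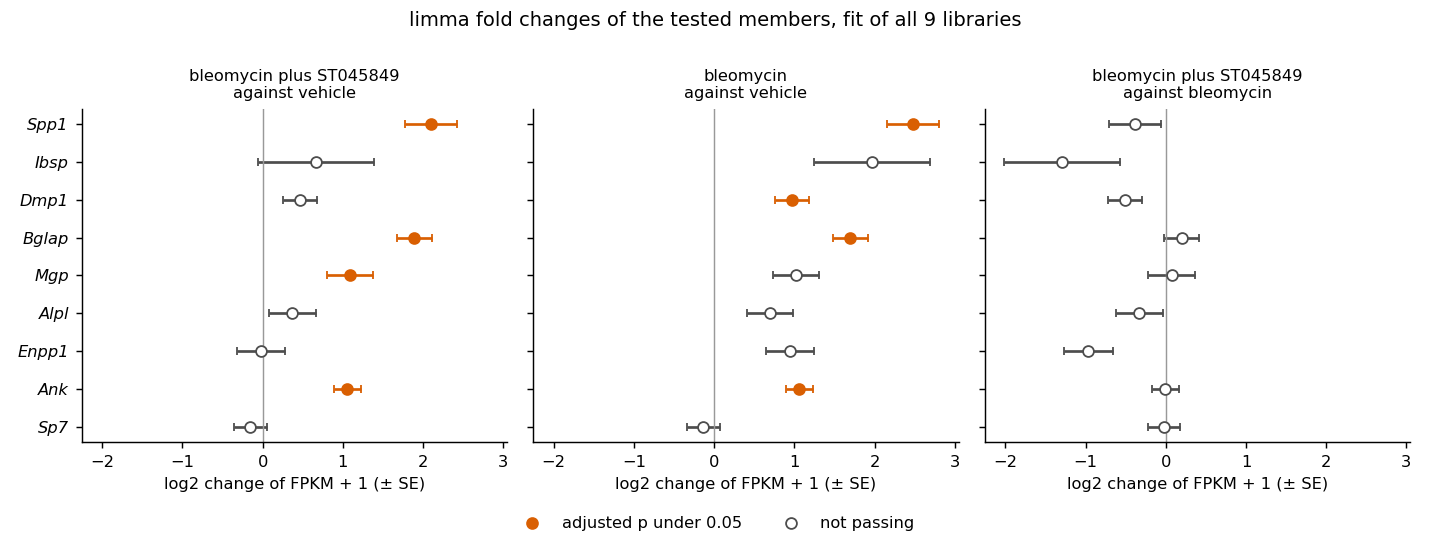
Log2 change of FPKM + 1 with its standard error for the 9 tested genes in the 3 comparisons, from the limma fit of all 9 libraries. Filled orange points passed an adjusted p of 0.05: 4 genes in each comparison with vehicle and 0 between the bleomycin groups.

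Libraries with the same number in the 2 bleomycin groups deviated together, so that comparison is also given paired, as a fit of the 2 groups with replicate number as a block. The labels state no such pairing, so paired p-values rest on a choice made from these data. In that fit Ibsp and Enpp1 were called lower with ST045849, 2 of 9, where 19.3% of all tested genes were called and 8% were called lower. With the block in the fit of all 9 libraries neither passed (adjusted p = 0.203 each). Exon length moved with this comparison. Among tested genes within 20% of the length of Enpp1 (10257 exon bases) the median log2 change was -0.34, and among those within 20% of the length of Bglap (618) it was 0.52. Once length trends were taken out of every library, the paired fit called 1.28% of genes (0.555% lower), and Ibsp was the 1 of the 9 among them. The length trend was also present with bleomycin plus ST045849 against vehicle. There the genes within 20% of the length of Spp1 had a median log2 change of 0.51. For the other called genes that median was 0.39 (Bglap), 0.27 (Ank) and 0.58 (Mgp). Whether RNA quality or library preparation plays a part in the length trend was not tested.

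**Figure D3:**
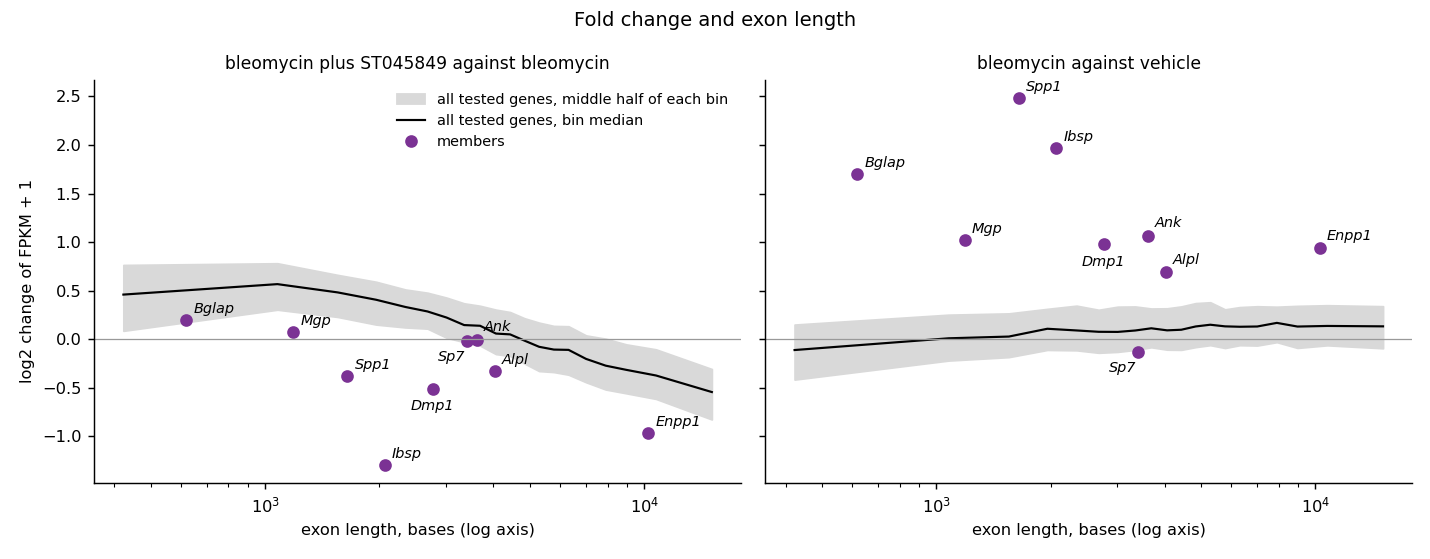
Log2 change of FPKM + 1 against exon length (log axis) for bleomycin plus ST045849 against bleomycin and for bleomycin against vehicle. The line is the median of all tested genes in 20 bins of length, the band its quartiles, and the purple points the 9 tested mineralization genes. In the comparison between the bleomycin groups the line runs from 0.46 in the shortest bin to -0.54 in the longest, and all 9 genes lie below the median of the genes within 20% of their own length. Both comparisons use the same bleomycin libraries, so they are not independent.

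Spp1, Ibsp and Dmp1 encode acidic phosphoproteins of bone matrix and lie side by side on mouse chromosome 5, in GRCm38, on the forward strand, with Dspp and Mepe. Spp1 (ENSMUSG00000029304, chr5:104435118-104441050) encodes osteopontin, which binds integrins and Cd44 and coats crystals. It measured 1569, 1192 and 1525 FPKM with bleomycin plus ST045849, 2259.8, 1703 and 1638 FPKM with bleomycin, and 543, 240.0 and 275 FPKM with vehicle. Every bleomycin-treated library stood above every vehicle library, and the 3 ST045849 libraries lay below the 3 bleomycin ones. Among all listed genes Spp1 ranked 10, 14 and 13 by FPKM with bleomycin and 115, 186 and 195 with vehicle. The log2 change was 2.48 ± 0.32 with bleomycin against vehicle (adjusted p = 0.00283) and 2.10 ± 0.32 with bleomycin plus ST045849 against vehicle (adjusted p = 0.0044). Both calls held in every alternative fit and with any library left out. With ST045849 against bleomycin Spp1 changed by -0.38 ± 0.32 (adjusted p = 0.453, and 0.0653 paired with the length trend removed). Tested genes of like length had a median of 0.46 in that comparison. The transcript Gm42793, of the same strand, shares 309 exon bases with Spp1, 18.8% of its exon length, and averaged 0.658, 2.18 and 0.354 FPKM with bleomycin plus ST045849, bleomycin and vehicle. The sources used here do not say how reads were divided between the genes.

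The stretch before the start of Spp1 is shown because its RNA was among the most abundant in bleomycin libraries. It is the 250 bases upstream of the RefSeq start (GRCm38.p6, chr5:104434861-104435110, forward strand), and capitals mark TATAAA and the RUNX core TGTGGT, here on the reverse strand as ACCACA.
Spp1 promoter: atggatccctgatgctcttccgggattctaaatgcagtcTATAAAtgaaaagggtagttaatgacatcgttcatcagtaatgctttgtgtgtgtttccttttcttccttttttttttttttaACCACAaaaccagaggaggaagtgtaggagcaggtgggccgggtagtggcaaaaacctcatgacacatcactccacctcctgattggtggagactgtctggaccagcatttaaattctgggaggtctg

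Both motifs were searched on both strands, together with the AP-1 letters TGANTCA, in 32851 promoter windows of that length. TGTGGT occurred in 14.0%, TGANTCA in 6.75% and TATAAA in 12.4% of them. RUNX2, which binds the RUNX core, drives osteoblast genes. The ACCACA of Spp1 begins 128 bases and its TATAAA 211 bases before the start, and the window of its other RefSeq start holds none of the 3 motifs. Enpp1, which was not called in the fit of all libraries, also holds ACCACA, 144 bases before its start.

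Ibsp (ENSMUSG00000029306, chr5:104299171-104311469) encodes bone sialoprotein, a protein of mineralizing bone and calcified cartilage. It measured 42.2, 5.62 and 11.9 FPKM with bleomycin plus ST045849, 83.3, 22.1 and 26.8 FPKM with bleomycin, and 20.9, 3.95 and 7.39 FPKM with vehicle. The bleomycin libraries all lay above the vehicle libraries, and library 1 was the highest and library 2 the lowest of each group. The log2 change was 1.96 ± 0.72 with bleomycin against vehicle (4.09-fold by mean FPKM, adjusted p = 0.17), which did not pass. With ST045849 against bleomycin it was -1.29 ± 0.72 (adjusted p = 0.281). Within the pairs the ST045849 library held 0.507, 0.254 and 0.442 of the FPKM of the bleomycin library of the same number. Paired, Ibsp fell by 1.29 ± 0.21 on the log2 scale (adjusted p = 0.0115), and by 1.59 ± 0.22 with the length trend removed (adjusted p = 0.0373). With the block in the fit of all 9 libraries the change was the same and its adjusted p was 0.203. With ST045849 against vehicle the change was 0.67 ± 0.72 (adjusted p = 0.539), and it was -0.07 without ST045849 library 1.

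The Ibsp stretch is shown for comparison with its neighbours; the mirror-image TATA letters (TTTATA, capitals) sit 28 to 23 bases before its start (GRCm38.p6, chr5:104299037-104299286, forward strand), and an inverted TATA box is known from the rat gene.
Ibsp promoter: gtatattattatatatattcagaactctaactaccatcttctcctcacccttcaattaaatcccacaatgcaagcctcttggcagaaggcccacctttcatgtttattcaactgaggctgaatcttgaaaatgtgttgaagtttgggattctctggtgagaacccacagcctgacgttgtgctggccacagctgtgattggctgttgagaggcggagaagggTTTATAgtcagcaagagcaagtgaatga

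Dmp1 (ENSMUSG00000029307, chr5:104202613-104214102) encodes dentin matrix protein, made mainly by osteocytes and odontoblasts, and was low throughout. It measured 1.19, 0.311 and 0.515 FPKM with bleomycin plus ST045849, 1.84, 1.29 and 0.927 FPKM with bleomycin, and 0.150, 0.183 and 0.208 FPKM with vehicle. All 6 bleomycin-treated libraries lay above the vehicle ones. It rose by 0.98 ± 0.21 with bleomycin against vehicle (7.50-fold by mean FPKM, adjusted p = 0.0274). Only 3 libraries reached 1 FPKM. The call was lost without bleomycin library 1 (adjusted p = 0.104) or 2 (0.0836), without vehicle library 1 (0.0756), 2 (0.0993) or 3 (0.0916), with no filter (0.0712) and with quantile normalization (0.0581). With ST045849 the change was -0.51 ± 0.21 against bleomycin (adjusted p = 0.21, and 0.0528 paired) and 0.47 ± 0.21 against vehicle (adjusted p = 0.161). Without ST045849 library 1 the change against bleomycin was -0.72 ± 0.19 (adjusted p = 0.0339).

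The Dmp1 stretch lies before the RefSeq start nearest the annotated gene start (GRCm38.p6, chr5:104202367-104202616, forward strand), and holds ACCACA (capitals) 164 bases upstream of it. The window of the other RefSeq start of Dmp1 holds none of the motifs searched.
Dmp1 promoter: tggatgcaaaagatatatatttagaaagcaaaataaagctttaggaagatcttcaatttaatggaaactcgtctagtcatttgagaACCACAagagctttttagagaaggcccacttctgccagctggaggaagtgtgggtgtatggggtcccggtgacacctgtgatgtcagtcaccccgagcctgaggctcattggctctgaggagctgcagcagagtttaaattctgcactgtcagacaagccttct

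The other genes of this cluster were nearly silent. Dspp, which encodes dentin sialophosphoprotein, was listed at 0 in all 9 libraries, and Mepe, an osteocyte phosphoprotein, reached at most 0.0812 FPKM. The genes that flank the cluster were looked at after these values were seen. Sparcl1 averaged 26.0 ± 10.9, 38.9 ± 9.35 and 16.8 ± 4.37 FPKM with bleomycin plus ST045849, bleomycin and vehicle (bleomycin against vehicle 1.17 ± 0.30, adjusted p = 0.0544). Pkd2 averaged 26.9 ± 10.6, 38.8 ± 7.12 and 26.3 ± 5.16 FPKM (0.55 ± 0.30, adjusted p = 0.403; SD, n = 3 each).

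**Figure D4:**
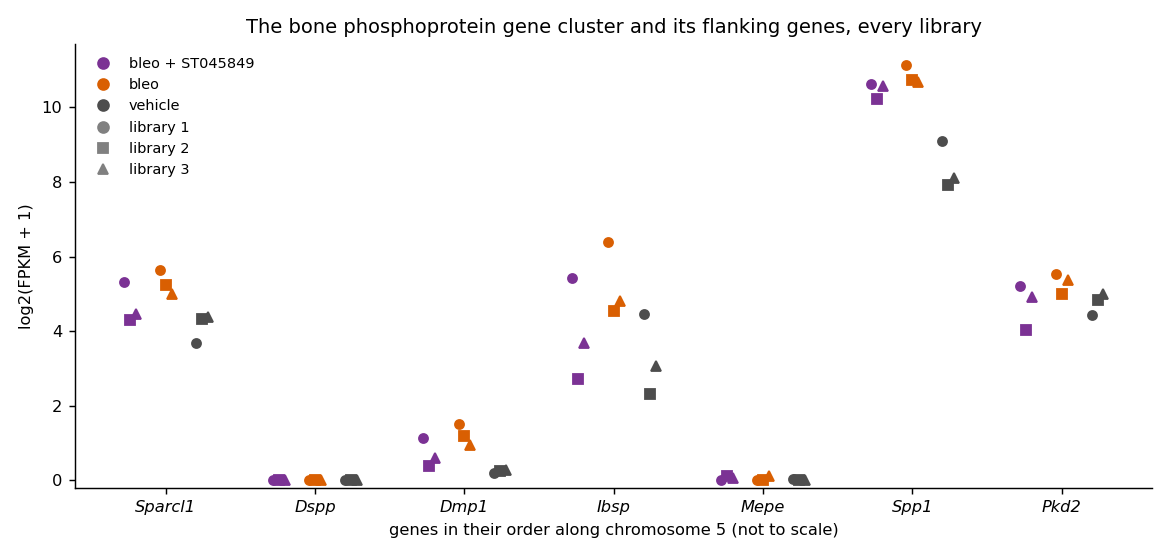
Log2(FPKM + 1) in every library for the phosphoprotein genes of chromosome 5 and the genes beside them, in their order along the chromosome but not to scale. Spp1, Ibsp and Dmp1, and the flanking Sparcl1 and Pkd2, each have their highest value in bleomycin library 1, while Dspp and Mepe stay at or near 0 in all 9 libraries.

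Osteocalcin and matrix Gla protein carry gamma-carboxylated glutamates, made with vitamin K, that bind calcium. Bglap (ENSMUSG00000074483, chr3:88383501-88384464, reverse strand) encodes osteocalcin, a product of mature osteoblasts. It measured 3.30, 3.90 and 2.44 FPKM with bleomycin plus ST045849, 3.10, 3.00 and 1.93 FPKM with bleomycin, and 0.412, 0 and 0 FPKM with vehicle. It was detected in all 6 bleomycin-treated libraries and listed at 0 in 2 of 3 vehicle libraries. It rose by 1.70 ± 0.22 with bleomycin against vehicle (adjusted p = 0.00283) and by 1.89 ± 0.22 with bleomycin plus ST045849 against vehicle (adjusted p = 0.00123), and both calls held with any library left out. Between the bleomycin groups the change was 0.20 ± 0.22 (adjusted p = 0.565), and -0.27 with the length trend removed.

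Mice carry a near-identical copy, Bglap2 (ENSMUSG00000074486, chr3:88377736-88378699), which also encodes osteocalcin. Bglap2 measured 3.77, 4.35 and 4.23 FPKM with bleomycin plus ST045849, 2.52, 3.07 and 3.00 FPKM with bleomycin, and 0.0886, 0 and 0 FPKM with vehicle. It rose by 1.91 ± 0.15 with bleomycin against vehicle (adjusted p = 0.000388) and by 2.31 ± 0.15 with bleomycin plus ST045849 against vehicle (adjusted p = 0.000137). The ST045849 libraries all lay above the bleomycin ones, by 0.40 ± 0.15 (adjusted p = 0.203). Paired with the length trend removed, the change was -0.05 ± 0.17 (adjusted p = 0.877). The coding sequences of both genes (288 bases, GENCODE vM21, GRCm38) are shown because they differ at 4 bases only, marked in capitals, and are 98.6% identical.
Bglap coding sequence: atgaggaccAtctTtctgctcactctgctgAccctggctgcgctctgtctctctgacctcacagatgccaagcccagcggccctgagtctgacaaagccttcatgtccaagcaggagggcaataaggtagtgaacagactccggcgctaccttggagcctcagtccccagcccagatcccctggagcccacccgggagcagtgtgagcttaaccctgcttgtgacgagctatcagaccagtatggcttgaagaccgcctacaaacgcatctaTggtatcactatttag
Bglap2 coding sequence: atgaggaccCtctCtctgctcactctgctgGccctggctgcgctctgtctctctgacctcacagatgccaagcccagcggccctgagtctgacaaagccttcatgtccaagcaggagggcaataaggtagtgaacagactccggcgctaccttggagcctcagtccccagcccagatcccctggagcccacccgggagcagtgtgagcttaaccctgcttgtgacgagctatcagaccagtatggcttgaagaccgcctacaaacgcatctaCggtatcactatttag

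Of the 100-base windows of the Bglap transcripts, 56.3% occur unchanged in Bglap2. Reads from these windows cannot be told apart by sequence, so the split between the copies is uncertain. Summed, they measured 7.07, 8.24 and 6.67 FPKM with bleomycin plus ST045849, 5.62, 6.08 and 4.94 FPKM with bleomycin, and 0.501, 0 and 0 FPKM with vehicle. The sum was called in both comparisons with vehicle. It was not called between the bleomycin groups, where tested genes within 20% of the length of Bglap had a median log2 change of 0.52. Bglap3, the third gene of the row, was at most 0.169 FPKM.

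The bases before Bglap (GRCm38.p6, chr3:88384467-88384716, reverse strand of the chromosome) are shown because mouse osteocalcin is a known RUNX2 target through such an element. Capitals mark ACCACA 132 bases and TATAAA 27 bases before the start.
Bglap promoter: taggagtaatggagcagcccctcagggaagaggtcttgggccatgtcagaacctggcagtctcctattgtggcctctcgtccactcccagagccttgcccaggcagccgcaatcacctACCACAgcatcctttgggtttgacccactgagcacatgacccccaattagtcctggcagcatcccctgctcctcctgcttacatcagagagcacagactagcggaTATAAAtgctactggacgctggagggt

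Mgp (ENSMUSG00000030218, chr6:136872435-136875823, reverse strand) encodes matrix Gla protein, without which mouse cartilage and arteries calcify. It measured 2029, 2295 and 1449.8 FPKM with bleomycin plus ST045849, 1888, 2262 and 1359 FPKM with bleomycin, and 1023, 891 and 759 FPKM with vehicle. All 6 bleomycin-treated libraries lay above the vehicle ones. The log2 change was 1.02 ± 0.29 with bleomycin against vehicle (2.06-fold by mean FPKM, adjusted p = 0.0722), which missed the threshold but passed in 6 of 10 alternative fits, 3 of them with a replicate block. It was 1.09 ± 0.29 with bleomycin plus ST045849 against vehicle (2.16-fold, adjusted p = 0.0387), where tested genes of like length had a median of 0.58. That call was lost in 7 of 10 alternative fits, and without ST045849 library 2 (adjusted p = 0.11), bleomycin library 1 (0.0608) or 2 (0.0525), or vehicle library 2 (0.131) or 3 (0.156). Between the bleomycin groups it changed by 0.07 ± 0.29 (adjusted p = 0.887).

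Ank, Enpp1 and Alpl act on pyrophosphate. With bleomycin against vehicle the change of each was positive, and that of Ank was the 1 called. Ank (ENSMUSG00000022265, chr15:27466677-27594909, forward strand) measured 20.6, 16.6 and 19.7 FPKM with bleomycin plus ST045849, 18.9, 19.1 and 18.9 FPKM with bleomycin, and 8.74, 8.16 and 8.85 FPKM with vehicle. All 6 bleomycin-treated libraries lay above the vehicle ones, and the bleomycin libraries had an SD of 0.0775 FPKM. Ank rose by 1.06 ± 0.17 with bleomycin against vehicle (adjusted p = 0.00594) and by 1.05 ± 0.17 with bleomycin plus ST045849 against vehicle (adjusted p = 0.00501). Between the bleomycin groups the change was -0.01 ± 0.17 (adjusted p = 0.986). Its promoter is shown as that of a called gene whose window holds none of the 3 motifs (GRCm38.p6, chr15:27466427-27466676, forward strand).
Ank promoter: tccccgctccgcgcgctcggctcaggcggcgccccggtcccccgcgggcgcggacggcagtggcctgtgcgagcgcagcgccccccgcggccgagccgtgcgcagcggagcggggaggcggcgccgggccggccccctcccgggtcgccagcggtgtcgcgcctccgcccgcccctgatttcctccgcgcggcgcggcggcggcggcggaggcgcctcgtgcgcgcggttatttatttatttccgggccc

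Enpp1 (ENSMUSG00000037370, chr10:24637914-24712159, reverse strand) measured 12.5, 4.72 and 5.14 FPKM with bleomycin plus ST045849, 15.0, 12.7 and 15.1 FPKM with bleomycin, and 5.51, 7.97 and 7.52 FPKM with vehicle. The bleomycin libraries lay above all others, and ST045849 library 1 lay near them, away from libraries 2 and 3. The log2 change was 0.94 ± 0.30 with bleomycin against vehicle (2.04-fold by mean FPKM, adjusted p = 0.112) and passed in 4 of 10 alternative fits, 2 of them with a replicate block. The adjusted p was 0.016 without ST045849 library 1, which enters through the shared variance. With ST045849 against bleomycin the change was -0.97 ± 0.30 (0.522-fold, adjusted p = 0.203). Paired, Enpp1 fell by 0.97 ± 0.23 on the log2 scale (adjusted p = 0.0236), and the change was -0.56 ± 0.20 once the length trend was removed as well (adjusted p = 0.123). Without ST045849 library 1 the unpaired change was -1.36 ± 0.21 (adjusted p = 0.0163). Against vehicle the ST045849 group differed by -0.02 ± 0.30 (adjusted p = 0.966).

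Alpl (ENSMUSG00000028766, chr4:137741733-137796384, reverse strand) measured 8.82, 6.54 and 5.57 FPKM with bleomycin plus ST045849, 12.3, 7.15 and 7.88 FPKM with bleomycin, and 8.07, 3.44 and 4.61 FPKM with vehicle. The groups overlapped in every comparison and library 1 was the highest in each. The log2 change was 0.70 ± 0.29 with bleomycin against vehicle (adjusted p = 0.24), -0.33 ± 0.29 with ST045849 against bleomycin (adjusted p = 0.473) and 0.37 ± 0.29 with ST045849 against vehicle (adjusted p = 0.4). The ratio of Alpl to Enpp1 FPKM, which sets the destroying enzyme of pyrophosphate against the making one, was 0.706, 1.39 and 1.08 with bleomycin plus ST045849, 0.817, 0.564 and 0.521 with bleomycin, and 1.46, 0.431 and 0.614 with vehicle. The ranges overlapped in every comparison. A two-sided exact permutation test took the difference between group means of log2(FPKM + 1) of Alpl minus that of Enpp1. Its p was 0.2 for ST045849 against bleomycin, 0.5 for ST045849 against vehicle and 0.8 for bleomycin against vehicle. With 3 libraries against 3 it cannot give a p below 0.1. With ST045849 against bleomycin, tested genes of like length had a median log2 change of 0.09 for Alpl and -0.34 for Enpp1.

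Phex and Sp7, genes of the osteoblast lineage, were not called in any comparison. Phex (ENSMUSG00000057457, chrX:157162075-157415312, reverse strand), a surface protease of osteoblasts and osteocytes whose loss causes phosphate wasting, stayed at or below 0.106 FPKM in all 9 libraries and was not tested. Sp7 (ENSMUSG00000060284, chr15:102356606-102367182, reverse strand), the transcription factor that osteoblasts need, measured 2.91, 2.23 and 2.17 FPKM with bleomycin plus ST045849, 2.69, 2.96 and 1.86 FPKM with bleomycin, and 3.68, 2.24 and 2.64 FPKM with vehicle. The groups overlapped in all 3 comparisons. Its log2 change was -0.13 ± 0.20 with bleomycin against vehicle (adjusted p = 0.826), -0.02 ± 0.20 with ST045849 against bleomycin (adjusted p = 0.956) and -0.15 ± 0.20 with ST045849 against vehicle (adjusted p = 0.618).

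Beyond these genes, 69 others of mineralization were grouped in 7 lists by role, of which 47 were tested. The lists too were chosen with earlier results of these data known, so their shares are descriptive. Bglap2, which is among them, passed the filter only through bleomycin-treated libraries. With bleomycin against vehicle 7 rose, 1 fell and 39 did not pass, so 17.0% were called, against 4.88% of all tested genes, with a median log2 change of 0.22 against 0.10 over all tested genes. With bleomycin plus ST045849 against vehicle 7 rose, 3 fell and 37 did not pass, so 21.3% were called, against 9.85% of all tested genes (median 0.22, against 0.19 over all tested genes). With ST045849 against bleomycin 0 of 47 passed (median -0.08, against 0.06). Paired, 2 rose and 9 fell in that comparison, 23.4% of the 47 against 19.3% of all tested genes. With the length trend removed as well 0 rose and 4 fell, 8.51% against 1.28%.

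The other matrix proteins of bone had 3 risen of 6 tested with bleomycin against vehicle, where 4.2% of all tested genes were called higher. The 3 were Bglap2, which passed the filter only through bleomycin-treated libraries, Ecm1 and Tnn. With a library left out, the call held in 4 of 9 fits for Ecm1 and in 2 of 9 for Tnn. Ecm1, an extracellular matrix protein of skin and cartilage, averaged 109 ± 4.05, 109 ± 9.33 and 47.7 ± 18.1 FPKM with bleomycin plus ST045849, bleomycin and vehicle (SD, n = 3 each). It rose by 1.24 ± 0.25 in both comparisons with vehicle (adjusted p = 0.0201 with bleomycin and 0.0141 with ST045849 added). Sparc, an abundant collagen-binding protein of bone, averaged 3817 ± 679 FPKM with ST045849 and 4002 ± 371 FPKM with bleomycin, and was not called. Tenascin N (Tnn) and osteomodulin (Omd), named after their values were seen, fell in the paired comparison of ST045849 with bleomycin with and without length removal (with it, -1.31 ± 0.20 and -1.26 ± 0.18, adjusted p = 0.0373 each).

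Among 11 tested genes of phosphate and pyrophosphate handling, 1 rose with bleomycin against vehicle, where 4.2% of all tested genes were called higher. It was Phospho1, a phosphatase of matrix vesicles, which rose by 0.88 ± 0.20 (adjusted p = 0.0347). With ST045849 against bleomycin Phospho1 changed by -0.59 ± 0.20 (adjusted p = 0.203). Paired, it was called lower (adjusted p = 0.0421), also with the length trend removed (-0.89 ± 0.16, adjusted p = 0.0482). Its exons share 89.6% of their bases with Zfp652 and 84.2% with Abi3, so its reads may not be its own. Smpd3, a sphingomyelinase needed for mineralization of cartilage and bone, averaged 17.7 ± 9.52, 77.1 ± 21.5 and 93.4 ± 31.4 FPKM with bleomycin plus ST045849, bleomycin and vehicle (SD, n = 3 each). It fell by 2.39 ± 0.37 on the log2 scale with bleomycin plus ST045849 against vehicle (adjusted p = 0.0044), a call that held in all alternative fits and with any library left out. Against bleomycin it changed by -2.14 ± 0.37 (adjusted p = 0.203), and it was called paired (adjusted p = 0.00518), also with the length trend removed (0.0336). Nt5e, which makes adenosine from AMP, fell by 0.91 ± 0.22 on the log2 scale with bleomycin plus ST045849 against vehicle (adjusted p = 0.026). The phosphate transporter Slc20a1 averaged 25.7 ± 0.682, 28.9 ± 3.44 and 26.3 ± 3.50 FPKM and was not called.

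The transcription factors of osteoblasts and hypertrophic cells had 0 calls among 8 tested genes in each of the 3 comparisons in the fit of all libraries. Paired, Runx2 and Mef2c, a regulator of chondrocyte hypertrophy named after its values were seen, were called lower with ST045849 against bleomycin. The change of Mef2c was -1.15 ± 0.25 (adjusted p = 0.0196), and -0.56 ± 0.23 with the length trend removed (adjusted p = 0.161). Runx2, the osteoblast and hypertrophy regulator, averaged 3.47 ± 1.21, 5.60 ± 0.552 and 5.98 ± 1.40 FPKM with bleomycin plus ST045849, bleomycin and vehicle (SD, n = 3 each). The ST045849 libraries lay below the others, by -0.60 ± 0.24 against bleomycin (adjusted p = 0.204, 0.0478 paired, and 0.318 paired with the length trend removed, where the change was -0.26) and -0.66 ± 0.24 against vehicle (adjusted p = 0.0941). Cbfb, the partner of RUNX proteins, changed by 0.25 ± 0.38 with bleomycin against vehicle (adjusted p = 0.822), by -0.45 ± 0.38 with ST045849 against bleomycin (adjusted p = 0.449) and by -0.20 ± 0.38 with ST045849 added against vehicle (adjusted p = 0.741).

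Genes that modify these proteins had 0 of 6 called with bleomycin against vehicle (4.88% of all tested genes). With bleomycin plus ST045849 against vehicle they had 1 called (9.85% of all tested genes). That gene was Fam20c, the kinase that phosphorylates secreted proteins such as osteopontin, which rose by 0.74 ± 0.17 (adjusted p = 0.025) and averaged 13.0 ± 1.80 FPKM with ST045849 and 7.32 ± 0.629 FPKM with vehicle. Vkorc1, which recycles vitamin K, was called higher with ST045849 against bleomycin in the paired fit (0.65 ± 0.20, adjusted p = 0.0461) and neither in the fit of all libraries (adjusted p = 0.239) nor in the paired fit with the trend on gene length removed (adjusted p = 0.424). Of 2 tested mineral inhibitors and regulators, Tnfrsf11b (osteoprotegerin, the decoy receptor that holds back osteoclasts) averaged 217 ± 89.2, 286 ± 88.4 and 83.4 ± 15.4 FPKM with bleomycin plus ST045849, bleomycin and vehicle (SD, n = 3 each). It rose against vehicle by 1.73 ± 0.33 with bleomycin (adjusted p = 0.0145) and by 1.30 ± 0.33 with bleomycin plus ST045849 (adjusted p = 0.0324).

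Matrix vesicle and calcium proteins had 1 risen and 1 fallen of 8 with bleomycin against vehicle, where 4.88% of all tested genes were called. Anxa1, a calcium-dependent membrane binder, rose by 1.24 ± 0.27 (adjusted p = 0.0265), and Trpv4, a mechanosensitive calcium channel of chondrocytes, fell by 0.91 ± 0.19 on the log2 scale (adjusted p = 0.021). With bleomycin plus ST045849 against vehicle Anxa1 rose by 1.52 ± 0.27 (adjusted p = 0.00749), S100a4 rose by 1.59 ± 0.39 (adjusted p = 0.0303) and Trpv4 fell by 0.79 ± 0.19 (adjusted p = 0.0275). Of 6 tested receptors of osteopontin, Cd44 was the 1 that rose with bleomycin against vehicle, where 4.2% of all tested genes were called higher. Cd44 rose by 1.76 ± 0.28 (adjusted p = 0.00593), to 42.6 ± 11.2 FPKM with bleomycin, against 11.8 ± 2.85 FPKM with vehicle. With ST045849 Cd44 averaged 22.4 ± 6.03 FPKM and changed by -0.89 ± 0.28 against bleomycin (adjusted p = 0.203, 0.029 paired, and 0.1 paired with the length trend removed). Itgb5 rose with bleomycin plus ST045849 against vehicle (0.84 ± 0.24, adjusted p = 0.0485).

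Where a list had no call, the tested gene with the highest mean FPKM was taken. With ST045849 against bleomycin Tnfrsf11b changed by -0.42 ± 0.33 (adjusted p = 0.413), Anxa2, an annexin of matrix vesicles, by 0.37 ± 0.29 (adjusted p = 0.419) and Itgb1, an integrin chain, by -0.41 ± 0.35 (adjusted p = 0.455). With bleomycin against vehicle Vkorc1 changed by -0.02 ± 0.32 (adjusted p = 0.986). The calls of Bglap2 in both comparisons with vehicle, of Cd44 with bleomycin, and of Anxa1 and Smpd3 with ST045849 added held with any library left out. With bleomycin against vehicle the other 6 list calls were each lost without bleomycin library 2 or 3 or vehicle library 2, and some also without the remaining libraries (adjusted p up to 0.182). With ST045849 added the other 7 were each lost without vehicle library 2 or 3, and some without other libraries (adjusted p up to 0.173). Of 11 alternative fits, the calls with ST045849 added held in 3 for Itgb5, 4 for Tnfrsf11b, 5 for S100a4, 6 for Fam20c, 7 for Nt5e, 8 for Trpv4 and 9 for Ecm1. With bleomycin alone they held in 6 for Tnn, 8 for Phospho1, 9 for Anxa1 and at least 10 for Ecm1, Tnfrsf11b, Trpv4 and Cd44.

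**Figure D5:**
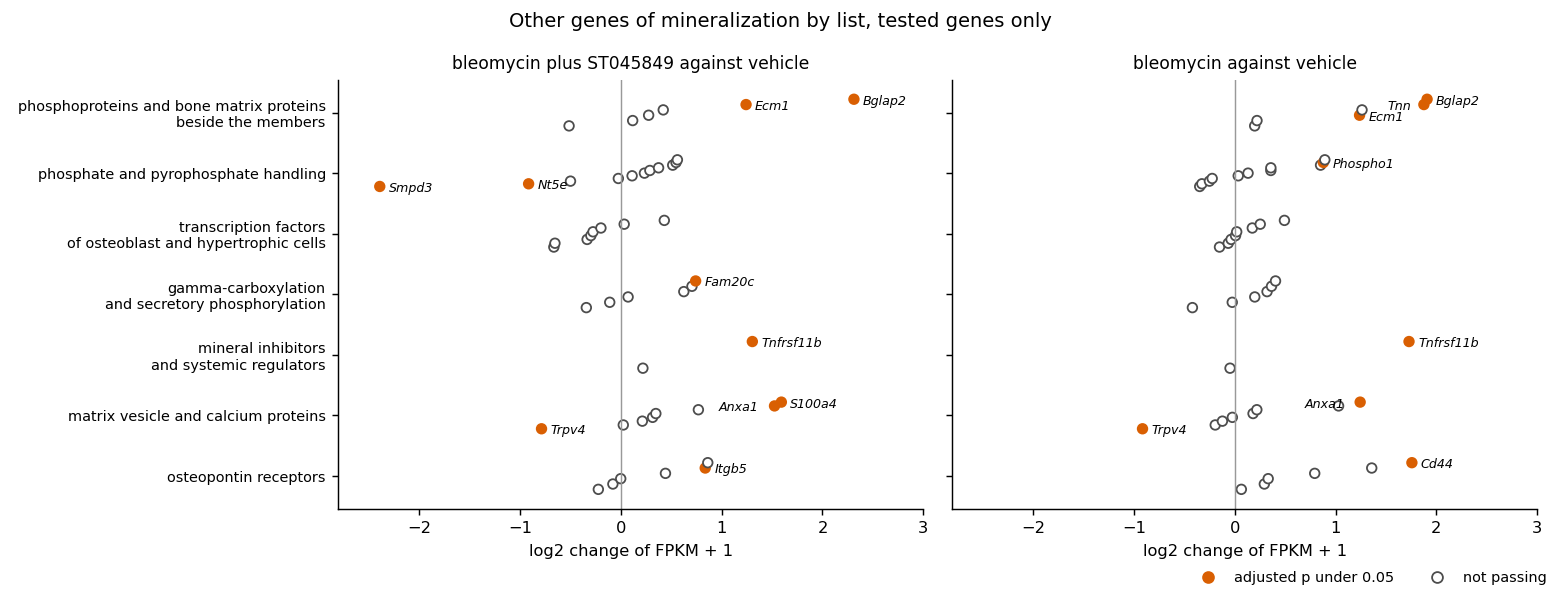
Log2 change of FPKM + 1 for the 47 tested genes of the 7 mineralization lists, in bleomycin plus ST045849 against vehicle and bleomycin against vehicle. Each point is a gene, and filled orange points passed an adjusted p of 0.05: 7 higher and 3 lower with ST045849 added, and 7 higher and 1 lower with bleomycin alone.

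Markers of other cells that make these proteins were read in the same libraries. Spp1 is also made by macrophages, and the summed FPKM of 9 macrophage markers was 11.8 to 18.0 with bleomycin plus ST045849, 10.9 to 12.6 with bleomycin and 3.05 to 5.75 with vehicle. Lyz2, Cd68 and Cd14, the 3 tested, rose in both comparisons with vehicle. Of all tested genes 4.2% were called higher with bleomycin against vehicle and 8.11% with ST045849 added. In vehicle libraries Lyz2 went down to 0.711 FPKM and Cd68 to 0.628, so both needed bleomycin-treated libraries to pass the filter. Tyrobp, C1qb and C1qc had 0 FPKM in all 9 libraries. With bleomycin against vehicle, leaving out library 2 or 3 of either group ended the call of Lyz2, Cd68 and Cd14 (adjusted p up to 0.162). With ST045849 added, leaving out vehicle library 2 or 3 ended those of Cd68 and Cd14, and Lyz2 held. Of 9 osteoblast and osteocyte markers, 4 were tested and 0 called. Of all tested genes 4.88% were called with bleomycin against vehicle and 9.85% with ST045849 added. Pdpn lay higher in both bleomycin groups than with vehicle (0.98 ± 0.27, adjusted p = 0.0645, with bleomycin and 0.89 ± 0.27, adjusted p = 0.0594, with ST045849 added). The sums of these 9 markers were 1837 to 3515, 3012 to 4396 and 2275 to 3282 FPKM, carried by Col1a1 and Col1a2. The osteoclast sums were 19.2 to 32.2, 14.8 to 23.3 and 13.0 to 25.5 FPKM, with Dcstamp at most 0.0297 and Calcr at most 0.0222. The 7 fibroblast or synovial markers summed to 541 to 1303, 1104 to 1698 and 656 to 808 FPKM, and Thy1 rose in both comparisons with vehicle. Of the hypertrophic chondrocyte markers, Mmp13 lay at 145 to 564, 277 to 530 and 42.6 to 122 FPKM and rose in both comparisons with vehicle (2.43 ± 0.51, adjusted p = 0.0221, with bleomycin), though neither its calls nor those of Thy1 held without vehicle library 2 or 3. Col10a1 lay at 18.3 to 32.8, 27.2 to 46.2 and 48.8 to 70.4 FPKM. With bleomycin plus ST045849 against vehicle Col10a1 fell by 1.30 ± 0.28 on the log2 scale (adjusted p = 0.018) and Panx3 fell by 1.16 ± 0.31 (adjusted p = 0.0413), calls lost in 3 and 7 of the 9 fits with a library left out, vehicle libraries 2 and 3 among them. More cells of a type and more RNA per cell cannot be told apart in such bulk samples, and the part of other cells in the levels of Spp1 and Bglap was not tested.

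The genes whose pattern was most like that of Spp1 over the 9 libraries, by the root mean square difference of centred log2 values, were Adm (0.325), Cd80 (0.364) and Masp1 (0.366). Adm, which encodes adrenomedullin, averaged 91.3 FPKM with bleomycin plus ST045849, 107.7 with bleomycin and 25.2 with vehicle. Those most like Bglap were Nr1d1 (0.141), Aplp1 (0.155) and Cnih2 (0.157). Nr1d1, a clock gene that shares 8.55% of its exon bases with Thra on the opposite strand, averaged 17.5, 16.0 and 4.21 FPKM in the same order of groups.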

How the data were processed

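The 9 poly(A) RNA libraries, in 3 groups of 3, were made with a stranded kit, per the labels' protocols. Trimmomatic and STAR were used with GRCm38, per the submitters' processing notes, which give no versions. The authors deposited FPKM for each gene; the sources used here do not name the program, annotation or use of strand behind them. Whole counts could not be recovered, since 23.8 to 26.6% of low values fell within 0.02 of a whole step (4% by chance), so depth is known only as a ratio between libraries.

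Here log2(FPKM + 1) was fitted with limma 3.58.1 (R 4.3.3, variance trend) over all 9 libraries after a filter of 1 FPKM in 3 libraries. Adjusted p-values in all texts are from limma with Benjamini-Hochberg adjustment. Coordinates, exon lengths, overlaps and coding sequences came from GENCODE vM21 (GRCm38), which held 99.5% of identifiers, and promoters from RefSeq, which matched 8 of the 10 genes. Length trends were removed by loess (span 0.5). Fits were tested on simulated data.

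The replicate numbers pair the 2 bleomycin groups: deviations from the group means of equal-numbered libraries correlated at 0.466, 0.481 and 0.5. The pairing comes from the data, not the labels.

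The members and lists were chosen with earlier results of these data known. The text names all 10 members, their paralogs and neighbours, Runx2, Phospho1, Slc20a1 and Ogt. For each list and comparison it names up to 2 risen and 2 fallen genes by adjusted p, or else the gene with the highest mean, and for Spp1 and Bglap the 3 most alike genes. Alternatives were a pseudocount of 0.1, no filter, a mean of 5 FPKM, 2 scalings, blocks, 2 groups alone, length removal, leaving out each library and, chosen after seeing the data, Bglap and Bglap2 summed.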

Additional observations from a re-analysis of the deposited data

How the results depend on the processing

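The calls of Spp1 and Bglap against vehicle held in every alternative that tested them and with any library left out. Of 264 member fold changes under alternatives, 228 kept their direction and side of the threshold, 11 lost the call, 17 gained one and 8 turned. Genes called with bleomycin against vehicle numbered 284 with a mean of 5 FPKM, 1024 with 2 groups alone and 1361 with length removal and a replicate block (184 to 829 with a library left out). Members called there were 2, 7 with the block in 2 groups and 8 with length removal and the block (3 to 5). With ST045849 against bleomycin the genes called were 1 with no filter, 2 each with a mean of 5 FPKM, quantile normalization and length removal, 2403 with the block in 2 groups and 159 with length removal and the block (0 to 2225), and the members 2 and 1 in the paired fits (0 to 2). With ST045849 against vehicle the genes were 651 with no filter, 660 with a mean of 5 FPKM, 621 with 2 groups alone, 199 with the block and 376 with length removal and the block (286 to 3060), and the members 2 in both paired fits (3 to 4). The replicate block in the fit of all libraries moved no count of genes by over 1.5 times, and between the bleomycin groups it called neither Ibsp nor Enpp1 (adjusted p = 0.203 each). Across bleomycin and vehicle equal numbers correlated at -0.0711, -0.026 and 0.546, and across ST045849 and vehicle at -0.519, -0.279 and 0.424. Only number 3 was positive in both. The labels do not say what libraries of equal number share, so whether vehicle libraries are paired with the others is not known. Ibsp with bleomycin against vehicle had an adjusted p of 0.00263 with the block in the fit of all libraries, and Ank with ST045849 against vehicle 0.0932 with the block in 2 groups.

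Directions turned for changes that were not called: between the bleomycin groups, Bglap to -0.27 (length removal, alone and with the block), Mgp to -0.20 (quantile) and -0.34 (length removal, alone and with the block) and Sp7 to 0.0757 (quantile). With ST045849 against vehicle, Enpp1 turned to 0.35 (length removal, alone and with the block) and the log2 Alpl to Enpp1 ratio to -0.0330 (length removal). With a library left out, the ranges that crossed 0 were, against vehicle, -0.0716 to 1.28 for Ibsp and -0.42 to 0.20 for Enpp1 with ST045849, and -0.25 to 0.0162 for Sp7 and -0.56 to 0.18 for the ratio with bleomycin. Between the bleomycin groups they were -0.13 to 0.26 for Mgp, -0.0650 to 0.0832 for Ank and -0.16 to 0.0747 for Sp7. The causes were not tested. Depth limits Phex, Mepe and Bglap3, whose FPKM lie near 0.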
